A study of Mus musculus with 24 samples.

Results

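The subunits of the ionotropic glutamate, GABA-A and glycine receptors were examined in the spinal cord of mice carrying a neuropathy mutation in Gars, the glycyl-tRNA synthetase gene, with and without the stress kinase gene Gcn2 (Eif2ak4). The members were the protein-coding genes whose GENCODE M21 symbol starts with Gria, Grik, Grin or Grid and a digit, with Gabr, or with Glra or Glrb. The rule took 43 of 38924 listed genes, of which 21226 are protein-coding. They comprise 4 AMPA, 5 kainate, 7 NMDA and 3 delta genes, 19 GABA-A genes and 5 glycine receptor genes. Grid2ip, a scaffold protein of delta receptors, came in by its symbol and is not a channel subunit, so 42 members encode subunits. Whole spinal cords of 24 mice aged 8 weeks were sequenced, all on the strain background B6J;CASTxB6.129. Mutant mice carried GarsP278KY over a wild-type allele (GarsP278KY/+, called Gars mutant here), and their controls were Gars+/+. With Gcn2+/+ there were 4 control mice (3 male, 1 female) and 4 mutant mice (1 male, 3 female). With Gcn2+/- there were 4 control mice (3 male, 1 female) and 4 mutant mice (2 male, 2 female). With Gcn2-/- there were 3 control mice (1 male, 2 female) and 5 mutant mice (3 male, 2 female). Sex is thus unevenly spread over the groups. The series' design names the Gcn2+/+ and Gcn2-/- groups, and the labels also hold the 8 Gcn2+/- libraries. No pooling of animals is stated, and all p-values measure the spread between these libraries.

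AMPA, kainate and NMDA receptors are tetrameric cation channels that carry fast excitation by glutamate. GABA-A and glycine receptors are pentameric chloride channels that carry fast inhibition, and in the spinal cord the adult glycine receptor is built mainly of the alpha subunit Glra1 and the beta subunit Glrb, which anchors it to gephyrin. Gcn2 senses uncharged tRNA and phosphorylates eIF2, which raises translation of the transcription factor ATF4. Mutant Gars causes a dominant peripheral neuropathy that affects motor and sensory axons.

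The libraries held 19727467 to 32392753 expected counts. Eif2ak4, the check of the Gcn2 labels, was at 31.2 ± 2.39 and 32.1 ± 1.01 CPM (counts scaled to the library total; SD, n = 4 each) in Gcn2+/+ controls and mutants, and lower in every Gcn2-/- library, at 11.41 to 15.01 CPM in the 3 controls and 11.67 to 14.3 CPM in the 5 mutants. The tissue label was checked against 21 motor neuron genes, whose summed level was 5544 to 6100 CPM in Gcn2+/+ controls. Libraries of the same genotype stood apart in 2 ways. The summed level of 15 Schwann cell genes reached 3659 CPM in Gcn2+/+ mutants and 3192 CPM in Gcn2+/- controls, against at most 1090 CPM in the other 4 groups. This came from 4 libraries, replicates 2 and 4 of the Gcn2+/+ mutants and replicates 1 and 3 of the Gcn2+/- controls.

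The second split came from the gene lengths deposited with the counts, which are mean transcript lengths weighted by the estimated share of each isoform. Averaged over 10997 tested genes whose length varied, the log2 deviation from each gene's mean length was above 0 in 9 libraries, 0.0147 at the lowest, and below 0 in 15 libraries, -0.00214 at the highest. The 9 libraries of the longer set were 3 of 4 Gcn2+/+ controls, 3 of 4 Gcn2+/- mutants, 2 of 3 Gcn2-/- controls and 1 of 5 Gcn2-/- mutants. None of the 4 Gcn2+/+ mutants and none of the 4 Gcn2+/- controls was among them, so genotype and set are partly confounded. The 4 libraries high in Schwann cell genes came from these 2 groups, so all 4 are in the shorter set. The level of Schwann cell genes is thus also partly confounded with genotype and with the set. The labels name 2 library kits for the study without saying which library was made with which, and what made the 2 sets was not tested. Glrb shows the split most plainly, with a deposited length of 2228 to 2353 bases in the shorter set and 2645 to 2988 bases in the longer set. Its level was 236.6 to 278.1 CPM in the shorter set and 301.9 to 383.0 CPM in the longer set. Among the 39 members tested, 3 (Glrb among them) were higher in every library of the longer set than in any library of the shorter set, and no member was lower in that way. Each call of a member is therefore also given with the set as a term of the model.

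Levels of different genes were compared in TPM (transcript abundance scaled by length and library). In Gcn2+/+ controls, the most abundant subunit RNA was Glrb at 226.7 ± 14.6 TPM (SD, n = 4), above Glra1, the adult glycine receptor alpha subunit, at 164.2 ± 22.8 TPM. Grin1, the obligatory NMDA subunit, stood at 161.7 ± 12.6 TPM and overlapped Glra1. Glra1 made up 88.9% ± 0.981 of glycine receptor alpha RNA. Glra3, Glra2 and Glra4 followed at 11.3, 8.18 and 0.875 TPM.

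Among the AMPA subunits, Gria4, a fast-gating subunit, was highest at 93.4 ± 3.63 TPM, 34.4% of AMPA RNA. Gria1 (66.8 ± 5.80 TPM), Gria2, whose edited form blocks calcium entry (58.9 ± 5.38 TPM), and Gria3 (52.5 ± 2.71 TPM) followed. Every Gria4 value lay above every Gria1 value, while Gria1 overlapped Gria2 and Gria2 overlapped Gria3. Among the kainate subunits, Grik5, an auxiliary high-affinity subunit, was highest at 35.6 ± 3.02 TPM or 42.5% of kainate RNA, followed by Grik2 at 17.4, Grik4 at 14.3, Grik3 at 10.5 and Grik1 at 5.92 TPM. Grin1 was 71.1% of NMDA RNA. Grin3a was next at 21.8 ± 0.955 TPM, then Grin2d, the slowly decaying GluN2 subunit, at 15.6 ± 2.45, Grin2c at 10.1, Grin2b at 7.53, Grin2a at 5.81 and Grin3b at 4.73 ± 0.743 TPM. The delta genes Grid1 and Grid2ip were at 17.5 and 6.78 TPM.

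Of the GABA-A genes, Gabra3 led the alpha subunits at 76.8 ± 6.83 TPM or 39.9% of alpha RNA, above Gabra2 (41.5 TPM), Gabra5 (35.7 TPM) and Gabra4 (9.51 TPM). The beta subunits Gabrb2 and Gabrb1 were at 24.2 and 18.6 TPM. Gabrg1, Gabrq, Gabrg3, Gabre, Gabrr2 and Gabrd were at 16.1, 5.94, 5.62, 1.72, 1.56 and 0.430 TPM. Gabra6, Gabrp, Gabrr1 and Gabrr3 did not pass the filter on low counts. Gabra6, a subunit of cerebellar granule cells, had at most 1 count in any library, and Gabrr3 at most 0.63 TPM.

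**Figure D1:**
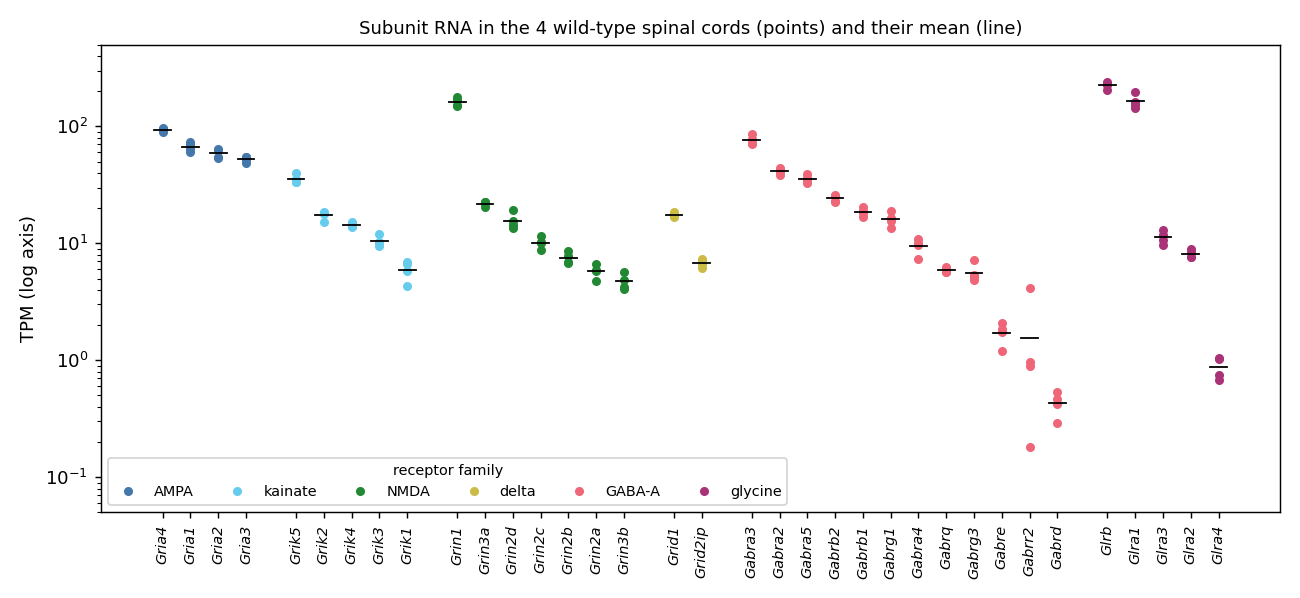
TPM (log axis) of 35 tested members in the 4 Gcn2+/+ Gars+/+ libraries, one point per library with a line at the mean, coloured by receptor family. Glrb, Glra1 and Grin1 stand highest, and Gabrd lowest, at 0.430 TPM on average.

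The first comparison asked how mutant Gars alters spinal cord RNA when Gcn2 is intact. Of the 39 members tested, 3 fell with mutant Gars in Gcn2+/+ mice (Grin3b, Gabrb2 and Gria3) and none rose, at a Benjamini-Hochberg adjusted p under 0.05 in edgeR's quasi-likelihood test over all genes. Of all 17409 genes tested, 0.632% were called in either direction and 0.419% were called lower. The members' median log2 fold change was -0.08, beside 0.01 over all genes, and 26 of the 39 were below 0. In whole-tissue RNA, fewer cells of a type and less RNA per cell cannot be told apart.

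Grin3b encodes GluN3B, a glycine-binding NMDA subunit that lowers calcium permeability and is enriched in somatic motor neurons. The gene lies on the plus strand of chromosome 10, from 79970715 to 79977190 (GRCm38). In Gcn2+/+ controls, Grin3b was at 6.50, 5.599, 6.08 and 6.65 CPM, and in Gcn2+/+ mutants at 3.27, 3.59, 4.599 and 4.36 CPM. Every mutant library lay below every control library in CPM. In Gcn2+/- controls the level was 6.25, 6.33, 5.87 and 6.01 CPM, and in Gcn2+/- mutants 4.53, 4.51, 4.77 and 4.73 CPM. Again the groups did not overlap. In Gcn2-/- controls Grin3b was at 5.58, 6.12 and 6.15 CPM, and in Gcn2-/- mutants at 6.01, 6.94, 6.97, 6.32 and 5.6 CPM. Here the groups overlapped, and all 5 mutants lay above every mutant of the other Gcn2 genotypes in CPM. On the TPM scale the Gcn2+/+ controls (4.1 to 5.73) and mutants (2.66 to 4.15) overlapped. The lowest Gcn2-/- mutant, at 3.86 TPM, lay within the range of the Gcn2+/+ mutants. The deposited length of Grin3b ran from 2114 to 2996 bases over the libraries.

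**Figure D2:**
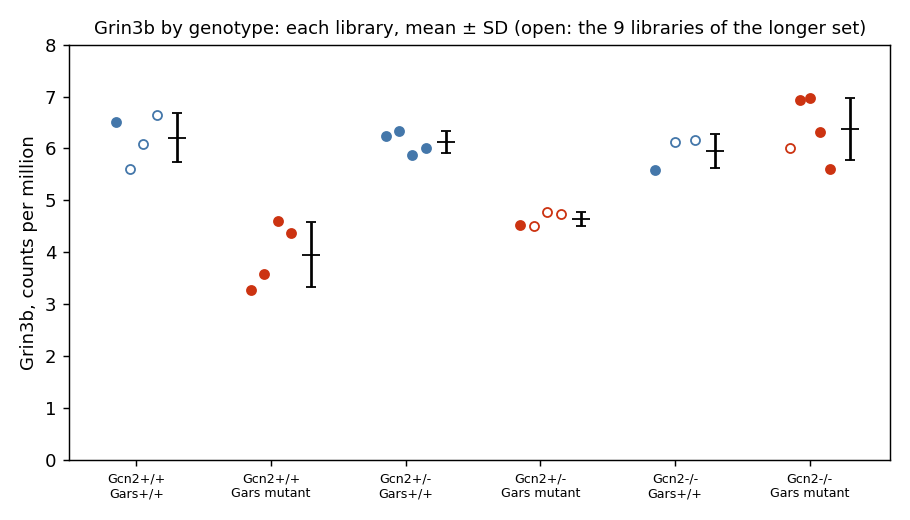
Grin3b in CPM, one point per library (blue Gars+/+, red Gars mutant, open points the 9 libraries of the longer set), with the mean and SD of each group beside it. The 4 Gcn2+/+ mutants and the 4 Gcn2+/- mutants lie between 3.27 and 4.77 CPM, below all other libraries, and the 5 Gcn2-/- mutants lie between 5.6 and 6.97 CPM.

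In the model with sex as a covariate, the log2 fold change of Grin3b with mutant Gars in Gcn2+/+ mice was -0.68 (SE 0.11, adjusted p 0.0031). In Gcn2+/- mice the difference was -0.42 (SE 0.11, adjusted p 0.141), which did not pass the threshold although the groups did not overlap. In Gcn2-/- mice it was 0.12 (SE 0.11, adjusted p 0.943). Averaged over the 3 Gcn2 genotypes, Grin3b fell by 0.33 (SE 0.06, adjusted p 0.0127), and it was the 1 member called in that average, where 0.448% of all genes were called and 0.293% were called lower. At an unadjusted p under 0.05 stood 9 members, beside 8.92% of all genes. Among Gars mutants, Grin3b was 0.71 higher on the log2 scale in Gcn2-/- than in Gcn2+/+ mice (SE 0.10, adjusted p 0.00116), again the 1 member called, where 0.494% of all genes were called and 0.236% were called higher. At an unadjusted p under 0.05 stood 4 members, beside 10% of all genes. Without the Gars mutation, loss of Gcn2 gave -0.09 (SE 0.12, adjusted p 1.0), and no member was called there, beside 0.0287% of all genes. These contrasts share libraries: the same Gcn2+/+ mutants enter the first difference and the one among mutants.

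Tested directly, the Gars effect on Grin3b was 0.80 log2 units higher in Gcn2-/- than in Gcn2+/+ mice (SE 0.16, unadjusted p 7.57e-05), with an adjusted p of 0.132 in edgeR and 0.00892 in DESeq2. No member was called in that test by edgeR, beside 0.0115% of all genes, and Grin3b was the 1 member at an unadjusted p under 0.05 (4.93% of all genes). For Gcn2+/- against Gcn2+/+ mice the corresponding value for Grin3b was 0.27 (SE 0.15, adjusted p 0.303).

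With the length set of the libraries as a term, Grin3b was called in these 3 contrasts, at -0.71 in Gcn2+/+ mice (adjusted p 0.0263), -0.33 on average (adjusted p 0.0173) and 0.72 for Gcn2 loss among mutants (adjusted p 0.00197). Within the 15 libraries of the shorter set the first difference was -0.72 (SE 0.22, adjusted p 0.838), resting on 1 control library against 4 mutants, and the last was 0.71 (SE 0.14, adjusted p 0.09998), with 4 libraries on each side that did not overlap. The longer set holds no Gcn2+/+ mutant and gives neither value. Without the 4 libraries high in Schwann cell genes, the Gcn2+/+ difference was -0.68 (adjusted p 0.0649), the average -0.33 (adjusted p 0.0905) and the Gcn2-/- excess among mutants 0.71 (adjusted p 0.0413). On log2(TPM + 0.5) with limma none of the 3 was called, at -0.45 in Gcn2+/+ mice (SE 0.15, adjusted p 0.109), -0.21 on average (adjusted p 0.388) and 0.50 among mutants (adjusted p 0.182). Fitted on only the groups of the comparison, the Gcn2+/+ difference (-0.78, adjusted p 0.283) and the one among mutants (0.70, adjusted p 0.219) were not called. With the numbers that open the sample titles as a block, the average was not called (-0.32, adjusted p 0.121). The 3 calls held in all 24 fits that left out 1 library.

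Grin3b is a low gene, with 91.6 to 199 counts per library. Its estimated count was not a whole number in any of the 24 libraries, and 1059 of its 3296 exonic bases (32.1%) overlap exons of Tmem259 on the opposite strand. Tmem259 was at 61.7 ± 2.67 CPM (SD, n = 4) in Gcn2+/+ controls and 68.4 ± 1.87 in Gcn2+/+ mutants, a log2 difference of 0.14 (adjusted p 0.236), opposite in sign to that of Grin3b. In Gcn2+/- and Gcn2-/- mice the difference of Tmem259 had the sign of that of Grin3b, at -0.18 (adjusted p 0.203) and 0.20 (adjusted p 0.878). Its part in the Grin3b counts was not tested. Grin3b was 2.08% ± 0.232 of NMDA subunit RNA on the TPM scale in Gcn2+/+ controls and 1.33% ± 0.412 in Gcn2+/+ mutants. The corresponding shares were 1.82% and 1.57% in Gcn2+/- mice, and 1.94% and 1.91% in Gcn2-/- mice.

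Motor neuron genes moved beside Grin3b. Of 21 tested motor neuron markers, 13 were called lower with mutant Gars in Gcn2+/+ mice, 9 in Gcn2+/- mice and 2 (Calca and Calcb) in Gcn2-/- mice. Among mutants, 9 were called higher in Gcn2-/- than in Gcn2+/+ mice. Of all genes, 0.419% were called lower in Gcn2+/+ mice and 0.236% higher in that comparison of mutants. In Gcn2+/- and Gcn2-/- mice 0.178% and 0.0115% of all genes were called in either direction. The marker list was chosen with earlier results of these data known, so these counts are no independent support. The summed level of the 21 markers was 3484 to 4208 CPM in Gcn2+/+ mutants, 4025 to 4752 in Gcn2+/- mutants and 4845 to 5350 in Gcn2-/- mutants. It was 5216 to 6042 and 5379 to 5695 CPM in Gcn2+/- and Gcn2-/- controls. Much of that sum is neurofilament RNA, with Nefm, Nefl and Nefh at 1774, 1582 and 952.7 CPM on average over all libraries. Chat, the acetylcholine-synthesizing enzyme of motor neurons, was at 21.8 ± 1.45 CPM in Gcn2+/+ controls and 14.7 ± 0.796 in Gcn2+/+ mutants (-0.55 on the log2 scale, adjusted p 0.000378). In Gcn2-/- mutants Chat was at 20.3 ± 1.24 CPM (n = 5). With mutant Gars in Gcn2+/+ mice, 18 of the 21 markers were below 0 and 3 above. Mnx1 stayed level there, at 1.73 ± 0.235 CPM in controls and 1.77 ± 0.506 in mutants (0.04, adjusted p 0.963). Isl1 was not called (-0.48, adjusted p 0.246). The part of the motor neuron genes in the Grin3b result was not tested.

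The sequence just upstream of Grin3b is shown because Grin3b was called both for the Gars effect in Gcn2+/+ mice and for Gcn2 loss among Gars mutants. The 240 bases end 10 bases before the RefSeq start (GRCm38.p6, chr10:79970474-79970713, plus strand), overlap no annotated exon, and hold 45.0% G and C. They were searched on both strands for TGATGNAA (the core of the element bound by ATF4 with a C/EBP partner), TGACGTCA (the cyclic AMP response element), GGGCGG (the GC box) and TATAAA (the TATA box), none of which overlapped another there, and matches are in capitals.
Grin3b: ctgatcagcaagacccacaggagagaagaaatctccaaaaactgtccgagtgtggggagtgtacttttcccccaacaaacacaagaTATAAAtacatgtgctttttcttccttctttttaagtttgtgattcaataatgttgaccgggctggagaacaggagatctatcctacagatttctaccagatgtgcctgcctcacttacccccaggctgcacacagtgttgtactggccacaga
The window held 1 TATAAA match and none of the other 3 motifs. Of all 32851 RefSeq windows of this length, 12.1% hold TATAAA, 31.3% GGGCGG, 3.37% TGATGNAA and 1.44% TGACGTCA. Of the 43 members, 30 had such a window (35 in all), and TGATGNAA was found in 1 of those windows, that of Gabra6. A match describes the letters and shows no binding.

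The other 2 members called in Gcn2+/+ mice were Gria3, an AMPA subunit on the X chromosome, and Gabrb2, a GABA-A beta subunit on chromosome 11. Gria3 was at 126.9, 152.6, 145.2 and 130.2 CPM in Gcn2+/+ controls and at 116.0, 110.7, 112.8 and 112.5 CPM in mutants. Gabrb2 was at 47.3, 53.9, 54.3 and 47.3 CPM in controls and at 43.0, 41.5, 40.4 and 39.9 CPM in mutants. For both genes the groups did not overlap, and control replicates 2 and 3 were the highest. The log2 fold change was -0.29 for Gria3 (SE 0.06, adjusted p 0.036) and -0.29 for Gabrb2 (SE 0.06, adjusted p 0.0276). Neither call held with the length set as a term, where the differences were -0.19 (adjusted p 0.379) and -0.21 (adjusted p 0.313), nor without the 4 Schwann-high libraries (-0.27, adjusted p 0.189, and -0.28, adjusted p 0.188). The summed level of 16 general neuron genes was 7518 to 8137 CPM in these controls and 6535 to 7262 CPM in these mutants. Of the 16, none was called, 6 were above 0 and 10 below, with a median log2 fold change of -0.04, and their mean log2 level ran from 8.18 to 8.26 in controls and from 8.04 to 8.18 in mutants. The part of these genes in the 2 results was not tested.

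Gria4 just missed the threshold, at 212.6, 232.4, 233.4 and 214.7 CPM in Gcn2+/+ controls against 183.9, 181.2, 180.9 and 178.2 CPM in mutants, without overlap (-0.29, SE 0.07, adjusted p 0.0522). In all, 5 members (among them Gria3, Gria4, Gabrb2 and Grin3b) had library values that did not overlap between these groups, all lower in mutants, beside 4.16% of all genes separated toward lower values. At an unadjusted p under 0.05 stood 10 members, 8 lower and 2 higher, beside 17.3% of all genes. The 2 higher were Grik5, at 74.6 ± 4.73 CPM in controls and 92.0 ± 11.3 in mutants (0.32, adjusted p 0.101), and Grin2d, at 37.8 ± 3.77 and 44.6 ± 4.12 CPM (0.26, adjusted p 0.147).

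**Figure D3:**
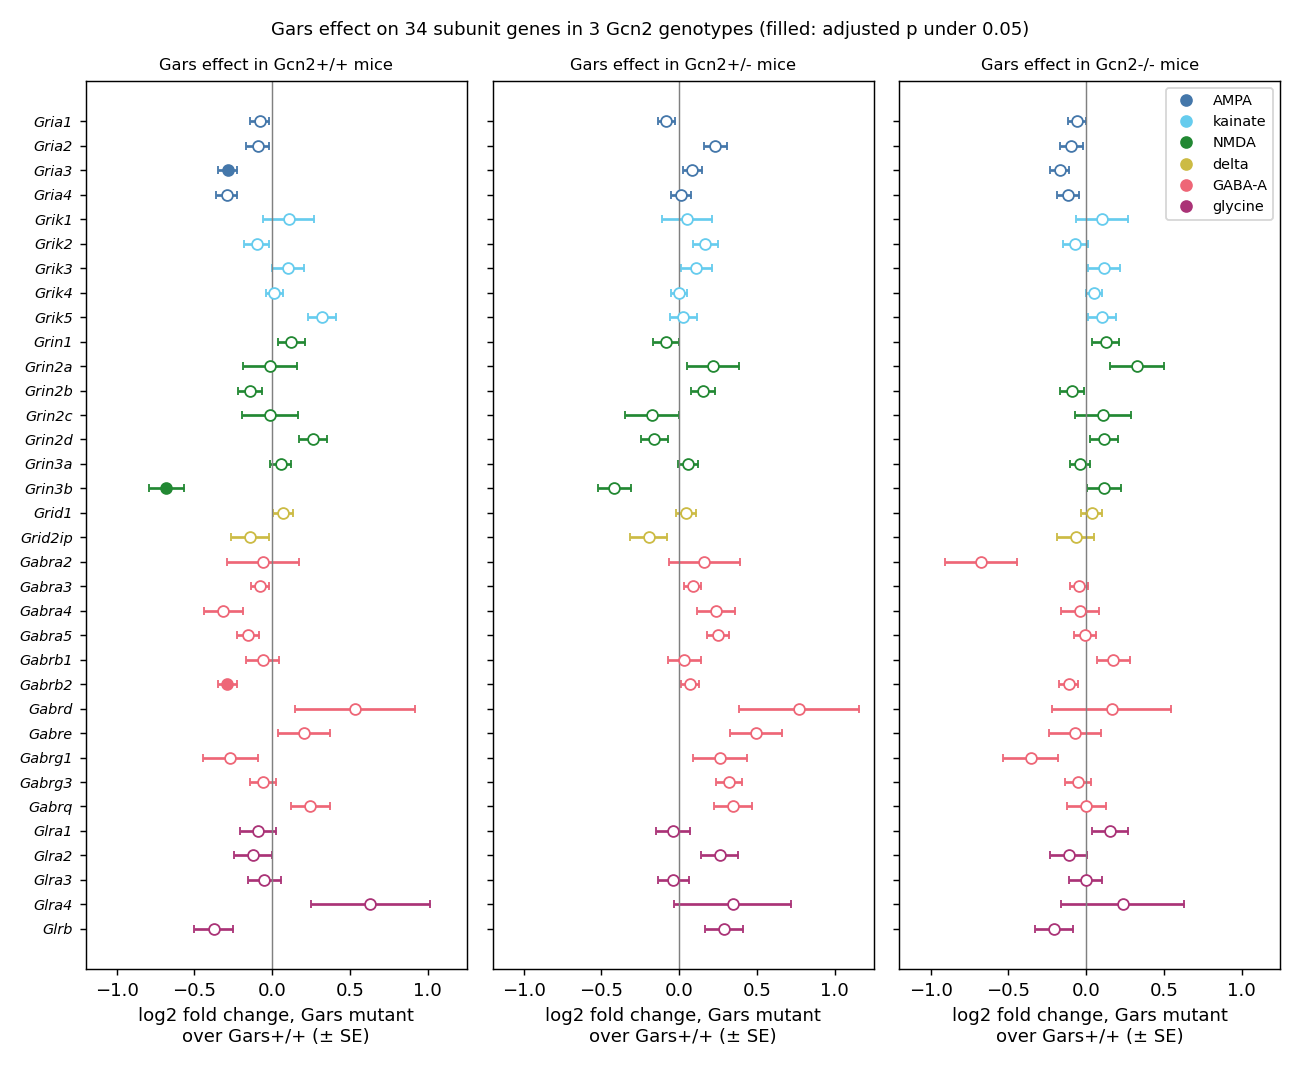
Log2 fold change of Gars mutant over Gars+/+ with its SE for 34 tested members in each Gcn2 genotype, ordered and coloured by receptor family, filled where the adjusted p is under 0.05 (Gabrr2, with SEs above 1, is left out). Grin3b lies at -0.68, -0.42 and 0.12 in Gcn2+/+, Gcn2+/- and Gcn2-/- mice, and Gabrb2 and Gria3 are the other filled points.

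In Gcn2+/- mice no member was called for the Gars effect by edgeR, beside 0.178% of all genes. At an unadjusted p under 0.05 stood 12 members, beside 14.7% of all genes, and DESeq2 called 2 (Gabra5 and Gabrg3). The median of the 39 was 0.11 on the log2 scale, beside -0.01 over all genes, with 29 above 0. Library values did not overlap for 8 members, of which 7 were higher in mutants (among them Gria2, Gabra5, Gabrg3, Glra2 and Grik2), beside 3.78% of all genes, and 1 was lower (Grin3b), beside 3.41%. In these groups 3 of 4 mutants and none of the 4 controls belong to the longer set.

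In Gcn2-/- mice no member was called for the Gars effect in edgeR, beside 0.0115% of all genes, and DESeq2 called none. At an unadjusted p under 0.05 stood 2 members, beside 4.35% of all genes. The members' median was -0.04. Values did not overlap for Gria1, Gria3, Gabra2 and Gabrb2, all lower in mutants, beside 1.71% of all genes. Gria3 was at 138.2, 142.3 and 138.5 CPM in controls and at 132.5, 118.4, 121.2, 133.6 and 117.7 CPM in mutants (-0.17, SE 0.06, adjusted p 0.941).

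Loss of Gcn2 without the Gars mutation left the members' median at 0.02, and no member had an unadjusted p under 0.05, beside 3.68% of all genes, with none called by DESeq2. Grin3a was the 1 member whose libraries did not overlap there, at 86.8 ± 4.16 CPM in Gcn2+/+ controls and 91.9 ± 1.47 in Gcn2-/- controls (0.08, SE 0.07, adjusted p 1.0), beside 2.27% of all genes separated toward higher values. Among Gars mutants, 4 members (Gria3, Gria4 and Grin3b among them) were higher in Gcn2-/- than in Gcn2+/+ mice without overlap, beside 2.11% of all genes. Gria4 was at 239.1, 207.2, 195.8, 217.9 and 197.6 CPM in Gcn2-/- mutants (0.22 above the Gcn2+/+ mutants, SE 0.06, adjusted p 0.196).

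No other member was called on average over the 3 Gcn2 genotypes. Among AMPA subunits, Gria4 gave -0.13 (SE 0.04, adjusted p 0.191), Gria3 -0.12 (adjusted p 0.171), Gria1 -0.07 (adjusted p 0.513) and Gria2 0.02 (adjusted p 0.97). Gria1 ranged from 174.1 to 213.0 CPM and Gria2 from 180.7 to 253.0 CPM over all 24 libraries. Of the kainate subunits, Grik5 gave 0.15 (SE 0.05, adjusted p 0.301), Grik3 0.11 (adjusted p 0.62), Grik1 0.09 (adjusted p 0.879) and Grik4 0.02 (adjusted p 0.915). Grik4 was the steadiest of these, from 29.5 to 34.4 CPM.

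Among the NMDA subunits, Grin1 gave 0.05 (SE 0.05, adjusted p 0.84) and ranged from 308.7 to 409.1 CPM. Grin2a, the GluN2 subunit of mature forebrain synapses, gave 0.18 (SE 0.10, adjusted p 0.659), and Grin2d gave 0.07 (SE 0.05, adjusted p 0.758). The mean share of Grin2d in GluN2 RNA on the TPM scale ran from 39.6% to 45.5% over the 6 groups. The delta genes gave 0.05 for Grid1 (adjusted p 0.802) and -0.14 for Grid2ip (adjusted p 0.602).

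Of the GABA-A genes, Gabrq gave 0.20 (SE 0.07, adjusted p 0.349), Gabrd, a subunit of extrasynaptic receptors, 0.49 (SE 0.22, adjusted p 0.506) and Gabre 0.21 (SE 0.10, adjusted p 0.517). Gabrd had 6 to 28 counts per library, so its values are coarse. The glycine receptor gene Glra4 gave 0.40 (SE 0.22, adjusted p 0.648) at 10 to 42 counts per library. Glra2 and Glra3 gave 0.01 (adjusted p 0.991) and -0.03 (adjusted p 0.942), and Glrb gave -0.10 (SE 0.07, adjusted p 0.773).

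The effect of mutant Gars was also compared between Gcn2+/- and Gcn2+/+ mice. In that difference 6 members were called, all higher, among them Gria3, Gabra5, Gabrb2 and Glrb. Of all genes, 3.7% were called (644 genes) and 2.45% were called higher. At an unadjusted p under 0.05 stood 18 members, beside 23.4% of all genes. The members' median was 0.22, beside -0.03 over all genes. None of the 6 calls held with the length set as a term, where 2 genes in all were called.

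Glrb, which anchors glycine receptors at synapses, was at 261.9, 382.7, 383.0 and 301.9 CPM in Gcn2+/+ controls and at 269.4, 236.6, 263.5 and 249.4 CPM in Gcn2+/+ mutants. In Gcn2+/- mice it was at 269.9, 265.8, 240.2 and 250.3 CPM in controls and at 255.9, 349.4, 322.9 and 322.2 CPM in mutants. The high libraries were replicates 2, 3 and 4 of the Gcn2+/+ controls and of the Gcn2+/- mutants, which are the members of the longer set in these groups. The difference of the Gars effects was 0.67 (SE 0.17, adjusted p 0.0425), 0.02 with the set as a term (adjusted p 0.983) and -0.01 within the shorter set (adjusted p 0.99). On the TPM scale Glrb was at 226.7 ± 14.6 and 223.0 ± 11.8 in Gcn2+/+ controls and mutants, and at 221.9 ± 9.87 and 230.7 ± 5.61 in Gcn2+/- controls and mutants (n = 4 each), so the group means span less than the largest SD.

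Gabra5, an alpha subunit of extrasynaptic receptors, was at 45.1, 52.3, 54.8 and 49.1 CPM in Gcn2+/+ controls and at 48.5, 44.7, 45.1 and 40.5 CPM in Gcn2+/+ mutants. In Gcn2+/- mice it was at 45.5, 45.3, 38.9 and 40.4 CPM in controls and at 49.5, 49.6, 51.4 and 50.6 CPM in mutants, where no mutant overlapped a control and the mutant of the shorter set lay with the rest. Its difference of effects was 0.40 (SE 0.10, adjusted p 0.0399), and 0.18 with the set as a term (adjusted p 0.827). Gabra5 has the same deposited length of 2653 bases in all libraries. Its level was still mostly higher in the longer set, at 48.9 to 54.76 CPM against 38.92 to 49.49 CPM in the shorter set. On log2(TPM + 0.5) with limma the difference of effects was 0.29 (SE 0.09, adjusted p 0.0735).

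Gria3 in Gcn2+/- mice was at 126.8, 131.2, 115.0 and 122.0 CPM in controls and at 123.6, 136.3, 133.0 and 130.1 CPM in mutants, and Gabrb2 at 43.0, 45.4, 41.1 and 42.8 CPM in controls and at 40.9, 46.6, 45.8 and 46.7 CPM in mutants. Both overlapped between these groups. Their differences of effects were 0.37 (SE 0.08, adjusted p 0.0399) and 0.36 (SE 0.08, adjusted p 0.0399), and 0.19 (adjusted p 0.791) and 0.21 (adjusted p 0.778) with the set as a term. Within the shorter set the differences of these 4 genes ran from -0.01 to 0.17, with adjusted p from 0.805 to 0.99. This comparison also holds the 4 libraries high in Schwann cell genes, 2 in each of 2 groups: 10 of 15 Schwann cell genes and 4 of 14 tested meningeal genes were called lower in the same difference, and without those 4 libraries no member was called.

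**Figure D4:**
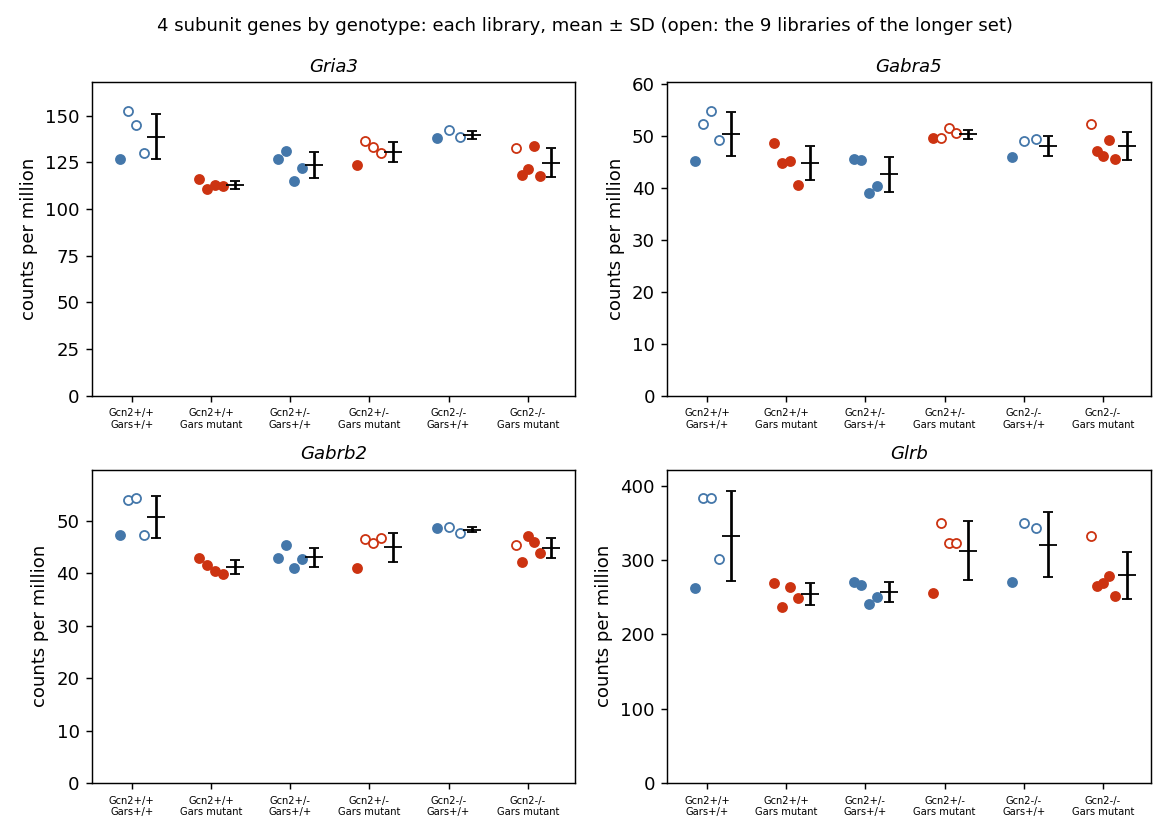
Levels in CPM of Gria3, Gabra5, Gabrb2 and Glrb, called in the difference of the Gars effects, one point per library (blue Gars+/+, red Gars mutant), with mean and SD. Open points, the 9 libraries of the longer set, hold every value from 301.9 CPM up for Glrb.

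The windows upstream of Glrb and Gabra5 are shown as those of 2 members of this group with and without a length difference between the sets. Both are 240 bases ending 10 bases before the RefSeq start (GRCm38.p6; Glrb chr3:80913671-80913910, minus strand, 62.1% G and C; Gabra5 chr7:57510070-57510309, minus strand, 55.8%), with matches to the 4 motifs above in capitals.
Glrb: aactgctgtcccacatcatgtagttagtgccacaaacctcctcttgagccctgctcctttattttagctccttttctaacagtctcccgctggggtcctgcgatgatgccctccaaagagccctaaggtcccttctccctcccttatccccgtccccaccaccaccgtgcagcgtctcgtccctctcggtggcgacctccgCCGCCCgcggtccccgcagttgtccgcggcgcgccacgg
Gabra5: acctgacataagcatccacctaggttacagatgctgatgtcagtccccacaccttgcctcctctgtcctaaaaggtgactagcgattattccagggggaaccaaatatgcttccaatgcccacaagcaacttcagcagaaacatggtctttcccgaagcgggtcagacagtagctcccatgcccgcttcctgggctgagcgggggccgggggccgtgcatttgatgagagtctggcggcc
The Glrb window held 1 GGGCGG match, and the Gabra5 window held none of the 4 motifs. GGGCGG was present in 15 of 35 member windows (42.9%) beside 31.3% of all windows, and TGACGTCA in none of the 35.

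Some members varied between libraries more than between groups. Gabra2, an alpha subunit of synaptic receptors, ranged from 36.1 to 87.3 CPM. It was at 65.8, 68.0, 39.7 and 38.3 CPM in Gcn2+/+ mutants and at 37.99, 49.3, 49.2 and 87.3 CPM in Gcn2+/- mutants. In Gcn2-/- mice it was at 42.1, 76.6 and 80.6 CPM in controls and at 39.2, 38.5, 42.0, 41.5 and 36.1 CPM in mutants. The 5 libraries from 65.8 CPM up thus came from 3 genotypes and both length sets. The Gars effect in Gcn2-/- mice was -0.68 (SE 0.23, adjusted p 0.941), although the groups did not overlap.

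Gabrg1, the neighbour of Gabra2 on chromosome 5, ranged from 30.1 to 54.8 CPM. It was at 54.8 CPM in the Gcn2+/- mutant with the highest Gabra2, and at 54.5 and 51.2 CPM in the 2 Gcn2-/- controls with high Gabra2. In the 2 Gcn2+/+ mutants with high Gabra2 it was at 39.9 and 38.2 CPM, near the others of that group (35.2 and 33.9 CPM). Libraries without high Gabra2 also reached 49.8 CPM (Gcn2+/+ control replicate 3) and 48.9 CPM (Gcn2+/- mutant replicate 2) for Gabrg1. Gabrg1 was at 36.7 to 54.8 CPM in the longer set and at 30.1 to 44.7 CPM in the shorter set. The Gcn2+/- mutant and the 2 Gcn2-/- controls named above were in the longer set, and the 2 Gcn2+/+ mutants in the shorter set. C57BL/6J mice are known to carry an intronic Gabra2 variant that lowers its RNA, and the strain label names a mixed background. The genotype at Gabra2 was not measured, and its part was not tested.

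**Figure D5:**
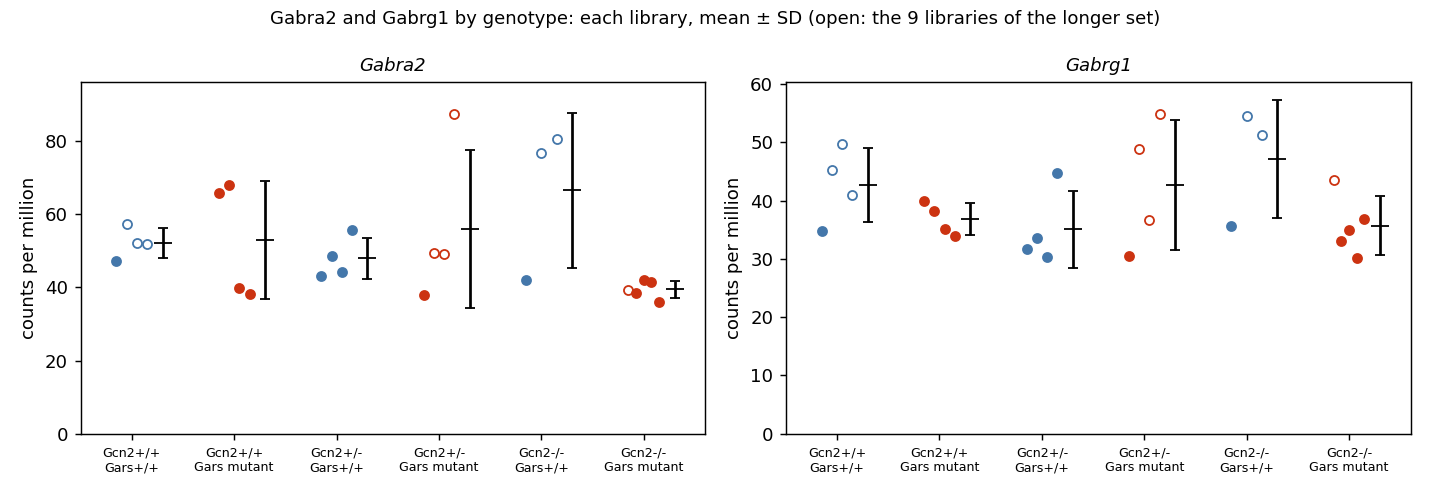
Levels in CPM of Gabra2 and its chromosome 5 neighbour Gabrg1, one point per library (blue Gars+/+, red Gars mutant, open points the longer set), with mean and SD. Gabra2 falls into 5 libraries between 65.8 and 87.3 CPM and 19 libraries at or below 57.2 CPM.

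Gabrr2, a rho subunit known from retina, was the most variable member, from 0.0994 to 6.98 CPM, with 2 to 137 counts per library. The highest library was replicate 4 of the Gcn2+/- controls, beside 0.319, 0.333 and 0.129 CPM in the other 3. No comparison called it, and its Gars effect in Gcn2+/+ mice had an SE of 1.19 on the log2 scale.

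Genes that serve these receptors were followed in 5 lists. Among 12 genes of glutamate release and clearance, Slc1a4, a neutral amino acid transporter, rose with mutant Gars in Gcn2+/+ mice (log2 fold change 0.35, SE 0.07, adjusted p 0.016) and on average (0.21, adjusted p 0.0105). These 2 calls were not refitted with the length set. The other 11 genes were not called in Gcn2+/+ mice, and the list's median was -0.13. Of the 12, 5 had an unadjusted p under 0.05 in edgeR's test there, beside 17.3% of all genes. None of 37 auxiliary and scaffold genes of the glutamate receptors was called in Gcn2+/+ mice (median 0.09), the nearest being Homer2, a postsynaptic scaffold (-0.33, adjusted p 0.0767). Of the 37, 19 had an unadjusted p under 0.05, beside the same 17.3% of all genes. In this list 24 genes were above 0 and 13 below.

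Among 16 genes of GABA and glycine synthesis, release and clearance, Shmt2, which makes glycine from serine in mitochondria, rose in Gcn2+/+ mutants by 0.41 (SE 0.09, adjusted p 0.0453), a call likewise not refitted with the length set, and the other 15 were not called. None of 18 genes of the inhibitory scaffold and chloride transport and none of 12 tested genes of metabotropic glutamate and GABA-B receptors was called there, with medians of -0.06 and -0.03. In Gcn2+/- and Gcn2-/- mice no gene of the 5 lists was called for the Gars effect. In the difference between the Gcn2+/- and Gcn2+/+ effects, 6 genes of the 5 lists were called higher, among them Slc17a6, Slc1a2, Neto2, Homer2 and Nlgn1, and Nlgn2 was called lower. Of all genes, 3.7% were called in that difference and 2.45% were called higher. These list calls are not given with the length set as a term or without the Schwann-high libraries. Both are unevenly spread over the groups compared.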

How the data were processed

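RNA of whole spinal cord from 24 mice was sequenced from polyA-selected libraries with paired reads on an Illumina NextSeq. Per the labels' protocols, 2 library kits were used (KAPA Stranded mRNA-Seq and KAPA mRNA HyperPrep). Bowtie2 2.2.0 and RSEM 1.2.12 are named in the submitters' processing notes. The genome build and the strand setting of the counting were not given in the sources used here. Each deposited file gives, per the file headers, the expected count, TPM and FPKM of each gene and other columns with its length and effective length, as the authors made them. FPKM was not used.

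Deposited expected counts were rounded, filtered with edgeR's default (minimum count 10, minimum total 15) and fitted over all 6 groups with sex as a covariate, TMM factors and the quasi-likelihood test (R 4.3.3, edgeR 4.0.16), which left 17 residual degrees of freedom and 17409 genes. P-values were Benjamini-Hochberg adjusted over all genes, with a threshold of 0.05. Of 38924 listed genes, 37607 matched GENCODE M21, and those unmatched held 0.261% of counts. CPM were computed from each library's total over the tested genes multiplied by its TMM factor (0.975 to 1.042), without adjustment for sex. TPM were used as deposited by the authors. Totals of 19727467 to 32392753 counts set the counting precision, which is lowest among tested members for Gabrd, Glra4, Gabrr2, Gabre and Grin3b.

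Groups came from the genotype labels, and replicates are numbered in accession order. Alternatives were DESeq2 1.42.0, RLE factors, no filter, no sex term, the groups of a comparison alone, the 4 listed genotypes, title numbers as a block or in 2 sets, a Schwann cell score, fits leaving out libraries, and, chosen after seeing the data, the length sets, limma 3.58.1 on log2(TPM + 0.5) and leaving out the 4 Schwann-high libraries. Named were Grin3b, members called, and up to 4 members per family with the smallest p for the average Gars effect. Members outside that rule (Grin3a, Gabra2, Gabrg1, Gabrr2 and others named for non-overlap) were chosen after their values were seen. The members, the 5 pathway lists and the marker lists were chosen with earlier results of these data known. Some genes are counted but not reported here by name. The scripts were tested on simulated data. Promoter sequences are from RefSeq (GRCm38.p6), and 13 members had no entry, among them Gabrd, Glra1, Gria1, Gria3, Grid1, Grik1, Grin2a, Grin2b and Grin3a.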

Additional observations from a re-analysis of the deposited data

Results flagged for a closer look

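Of 115 groups of 4 or 5 libraries tested for a library standing apart, 3 did, where chance gives about 1 in 20 groups. The 115 groups do not cover all 39 tested members, so 3 is not a count for all of them. Gabrr2 is not among the 3, although replicate 4 of the Gcn2+/- controls was at 6.98 CPM beside 0.129 to 0.333 CPM in the other 3. Gabrb2 was at 40.93 CPM in replicate 1 of the Gcn2+/- mutants, below 45.75 to 46.73 CPM in the other 3, and Grin1 was at 409.1 CPM in the same library, above 324.5 to 332.9 CPM. That library is the 1 of its group in the shorter set. Grin2a was at 24.5 CPM in replicate 4 of the Gcn2-/- mutants, above 12.93 to 16.26 CPM in the other 4.

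The effect of mutant Gars differed between Gcn2+/- and Gcn2+/+ mice, by edgeR's test of the difference itself, for Gabra5 (0.4037 on the log2 scale), Gabrb2 (0.3567), Glrb (0.6651) and Gria3 (0.3708), at adjusted p from 0.0399 to 0.0425. Among these groups, 3 of the 4 Gcn2+/+ controls and 3 of the 4 Gcn2+/- mutants belong to the longer set and the rest to the shorter set, and no adjusted p was under 0.05 with the set as a term.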

How the results depend on the processing

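The count of members called for the Gars effect in Gcn2+/+ mice (3) was 6 with DESeq2, 0 with only the groups of the comparison, 0 without the 4 Schwann-high libraries, 0 within the shorter length set and 0 with limma on TPM. It was 1 with no filter, with only the 4 listed genotypes, with title numbers as a block, with the Schwann cell score, without both Schwann-high mutants and with the length set as a term, and 1 to 8 when 1 library was left out. In Gcn2+/- mice DESeq2 called 2 members and the reported test 0. The average effect (1) gave 0 with title numbers as a block, without the 4 Schwann-high libraries, within the shorter set and with limma on TPM. Between the Gcn2-/- and Gcn2+/+ effects (0), DESeq2 called 1. Between the Gcn2+/- and Gcn2+/+ effects (6), the count was 11 with DESeq2 and 1 (Grin2d) with limma on TPM. That count was 0 with no filter, only the groups of the comparison, title numbers as a block, the Schwann cell score, the length set as a term, within the shorter set, and without the 2 or the 4 Schwann-high libraries, and it was 0 to 11 when 1 library was left out. The highest counts came without replicate 1 of the Gcn2+/+ controls (8 and 11) and without replicate 1 of the Gcn2+/- mutants (11). Gcn2 loss among mutants (1) gave 0 with only the groups of the comparison, within the shorter set and with limma on TPM. The 1 reversal was Glrb within the shorter set, -0.013 (adjusted p 0.99) in the difference of the Gcn2+/- and Gcn2+/+ effects.

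For Grin3b, the Gcn2+/+ difference ran from -0.786 to -0.45 over 38 alternatives (adjusted p 3.24e-05 to 0.838), and the value among mutants from 0.499 to 0.788 (adjusted p 1.14e-06 to 0.219), never changing sign. With only the groups of the comparison these were -0.779 (adjusted p 0.283) and 0.698 (adjusted p 0.219), and with title numbers as a block the average effect was -0.322 (adjusted p 0.121). Replicates are numbered in accession order and pair no libraries. The title numbers, fitted as the replicate block, are not stated to mark a shared litter or day, and 3 of them belong to a single library. What changed these counts was not tested, except that fits on fewer libraries have fewer samples. The shorter set leaves 1 library in 3 of the 6 groups, assumed to vary like the others. Depth limits Gabrd, Glra4, Gabrr2 and Gabre.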
